A study of Mus musculus with 8 samples.

Results

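The genes described here encode the sarcomere, the contractile unit of heart muscle. They comprise myosins and their light chains, actins, tropomyosins, troponins, titin and the M-band, proteins of the Z-disc, desmin, and factors of myosin assembly and of protein turnover. The 39 genes form a fixed list of adult and fetal isoforms, chosen with earlier results of these data known, and each was read on the brightest of its probes that the array annotation assigns to a RefSeq transcript of the gene and that 4 or more of the 8 arrays showed well above background. All 39 had such a probe, out of 15156 genes with one and 20145 named genes on the array.

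RNA came from ventricles of male mice of the C57BL\6 background. The anterior interventricular artery was permanently tied in 4 mice (MI mice), and 4 mice had a sham operation, which spares the artery (sham-operated or sham mice). All were killed 24 hours after surgery, and each mouse had its own mouse SurePrint G3 array, labelled in 1 colour. The groups share this background, and no transgene, mutation or exact age is named for either in the labels or methods. The study's abstract calls the mice adult. By its account, all mice of the array groups also had a PET scan with the tracer FDG 24 hours after surgery. For that scan its methods describe injections of Acipimox and FDG, under isoflurane anaesthesia. The labels name ventricles, whereas the study's methods describe an excised heart homogenized whole, so infarcted, bordering and remote muscle, and any atrial tissue left on the sample, share 1 value per mouse.

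In a sarcomere, thick filaments of myosin pull on thin filaments of actin once calcium binds troponin and tropomyosin moves aside. Titin spans from the Z-disc to the M-band and keeps the filaments in register, and desmin ties neighbouring Z-discs together. The adult mouse ventricle relies on Myh6, Actc1, Tnni3 and the ventricular light chains, while Myh7, Acta1, Tnni1 and the light chains Myl4 and Myl7 are known from the fetal ventricle or the atrium, and a return of some of them is a textbook response of loaded heart muscle.

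The adult myosin, light chain and troponin genes differed between the groups by less than the spread between mice, whereas a few genes of the thin filament and the Z-disc rose and 1 gene of protein turnover fell. Of the 39 genes, 5 rose (Acta1, Tpm3, Pdlim1, Tpm4 and Synpo2l) and 1 fell (Fbxo32) at an adjusted p under 0.05 (limma, Benjamini-Hochberg over all retained probes). Among all genes tested, 4.86% rose and 0.528% fell by the same rule. At a change of over 2-fold, Acta1 and Fbxo32 remained, against 1.55% of all genes higher and 0.0792% lower. Without adjustment, 12 of the 39 genes had a p under 0.05 in limma, and the share of all genes at that threshold was not counted. The median log2 fold change was 0.02 over the 39 genes and 0.03 over all genes. In 7 genes every MI mouse lay above every sham mouse, and in 1 gene every MI mouse lay below (8.33% and 3.32% of all genes).

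**Figure D1:**
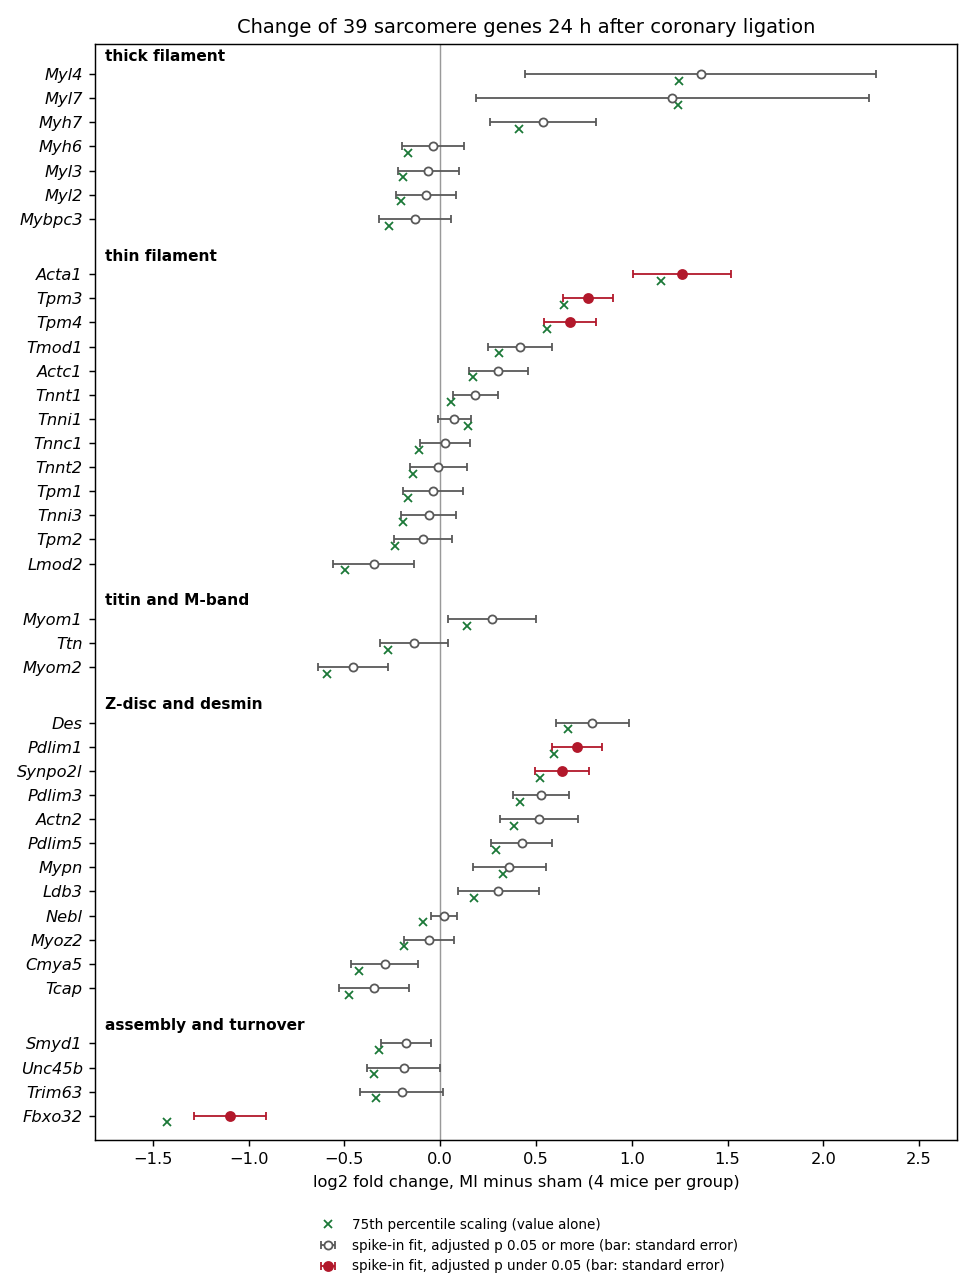
Log2 fold change (MI minus sham, 4 mice per group, x axis) of the 39 genes, grouped by role. Circles are values from the spike-in fit with standard errors, filled red where the adjusted p was under 0.05, and green crosses are values after scaling each array to its 75th percentile. The crosses lie to the left of most circles, and the 6 red genes keep their side of 0 under both.

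Values are log2 signals, put on a common scale with spike-in RNA that the authors had added before labelling. The count of genes depended on that scale and on single mice. With each array scaled to its 75th percentile in its place, log2 fold changes of the 39 genes were lower by a median of 0.13 (0.13 for all genes), 6 genes rose and 3 fell, and all 6 genes called by the spike-in fit were among them, against 10.1% and 12.5% of all genes. In the deposited log2 values of the authors, 5 genes rose and 1 fell (6.52% and 1.32% of all genes), with Des in place of Synpo2l. The rising share of all called genes was 90.2% with the spike-in fit and 44.9% with the percentile. With 1 mouse left out, 0 of the 39 genes were called without sham replicate 4, where limma still called 588 probes of the whole array and 9 of the 39 genes had an unadjusted p under 0.05. Only Tpm3 rose without MI replicate 1, 3 or 4, 2 rose without sham replicate 2, 3 rose without sham replicate 1 or 3, and 7 without MI replicate 2. Fbxo32 was no longer called without MI replicate 3 or sham replicate 4.

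Myh6 and Tnnt2, which define cardiomyocytes, were well above background on every array, and 0 of 15 other cardiomyocyte genes passed the test (1 at an unadjusted p under 0.05, median log2 fold change −0.13), while 2 fell after percentile scaling. The arrays shared 1 slide and 1 scan, in 2 rows with 2 mice of each group each, with 58.6% to 66.4% of spots well above background. The median deviation of the 39 genes from their means over all mice was between −0.27 in MI replicate 2 and 0.26 in MI replicate 3, so that mice of the MI group lay at both ends. The same median over all genes was −0.21 in MI replicate 2 and 0.12 in MI replicate 3, so these arrays also shifted as a whole. In tissue RNA, fewer cells of a type and less RNA per cell cannot be told apart.

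On the thick filament 0 of 7 genes rose and 0 fell in limma, also at an unadjusted p under 0.05, with a median log2 fold change of −0.04. Myh6, the alpha-myosin heavy chain that dominates the adult mouse ventricle, read 18.98, 18.44, 19.04 and 18.60 in MI mice 1 to 4 and 18.60, 18.74, 19.11 and 18.75 in sham mice 1 to 4. The groups covered the same range, and the difference was −0.04 with a 95% interval from −0.40 to 0.33.

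Myh7, the beta-myosin heavy chain of the fetal ventricle, read 13.64, 13.52, 13.48 and 14.70 in MI mice and 13.66, 13.24, 13.35 and 12.95 in sham mice. MI replicate 4 stood apart, and the other 3 MI mice lay below sham replicate 1 and above the rest of the sham mice. The log2 fold change was 0.53 ± 0.28 (SE, n = 4 and 4; adjusted p = 0.427 in limma), and 0.25 without MI replicate 4.

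The ventricular light chains likewise differed by little. Myl2, the regulatory light chain of the ventricle, read 18.97, 18.46, 19.04 and 18.56 in MI mice and 18.63, 18.73, 19.13 and 18.84 in sham mice. Myl3, the essential light chain, read 19.30, 18.81, 19.43 and 19.00 in MI mice and 19.00, 19.09, 19.51 and 19.18 in sham mice. For each of them MI replicate 2 was the lowest of all mice and sham replicate 3 the highest, the groups overlapped, and the differences were −0.07 (95% interval −0.43 to 0.29) and −0.06 (−0.43 to 0.30). Mybpc3, cardiac myosin-binding protein C, differed by −0.13 ± 0.19.

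The atrial light chains had the highest fold changes on the thick filament and the widest spread. Myl4, the atrial essential light chain, read 16.72, 15.98, 16.71 and 15.50 in MI mice and 15.22, 16.83, 15.52 and 11.90 in sham mice. Myl7, the atrial regulatory light chain, read 14.41, 13.23, 14.15 and 12.99 in MI mice and 12.97, 14.58, 13.25 and 9.14 in sham mice. In each gene sham replicate 2 was the highest of all mice and sham replicate 4 the lowest by far, so the groups overlapped. The log2 fold changes were 1.36 ± 0.92 for Myl4 (adjusted p = 0.592) and 1.21 ± 1.02 for Myl7 (adjusted p = 0.709), and they were 0.37 and 0.10 without sham replicate 4, but 2.01 and 1.91 without sham replicate 2.

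Some other atrial genes were high and low in the same sham mice. Sln, the atrial calcium pump regulator sarcolipin, read 14.87, 13.80, 14.89 and 14.42 in MI mice and 14.00, 15.84, 14.43 and 9.32 in sham mice. Nppa, atrial natriuretic peptide, read 18.31, 17.79, 18.34 and 17.61 in MI mice and 16.69, 17.91, 16.91 and 15.03 in sham mice. Sham replicate 4 was the lowest mouse in both, and the sham mice kept the order they had in Myl4 and Myl7. Kcnj3, an atrial potassium channel subunit, did not follow them. It read 8.47, 8.16, 8.55 and 8.55 in MI mice and 8.56, 8.47, 8.82 and 8.53 in sham mice, where replicate 2 was the lowest. Its log2 fold change was −0.16, and it fell after percentile scaling (−0.54, adjusted p = 0.049 in limma). Summed over the 7 atrial markers, which include Myl4 and Myl7 themselves and of which 0 passed the test and 1 had an unadjusted p under 0.05, the signal on the linear scale was 279049 to 491862 in the MI group against 38250 to 450831 in the sham group, with replicate 4 lowest and replicate 2 highest within the sham group. Nppa weighed most in this sum, with a mean signal before scaling of 202506, against 66597 for Myl4, the next. It was also the gene with an unadjusted p under 0.05 (0.029 in limma). Bmp10, a defining atrial marker, read between 7.77 and 8.21 in all mice, close to the lowest signal that counted as above background (7.71 to 7.79 by array). The part of atrial tissue in the light chain values was not tested.

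**Figure D2:**
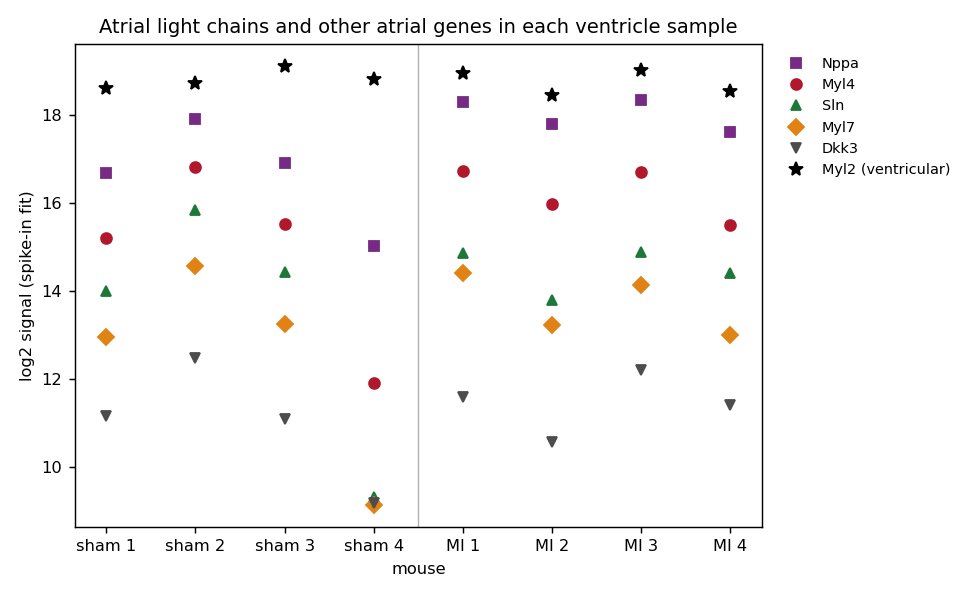
Log2 signal (y axis) of the atrial light chains Myl4 and Myl7, the atrial genes Nppa, Sln and Dkk3, and the ventricular light chain Myl2 in each of the 8 mice (x axis). Sham replicate 4 is lowest for every atrial gene drawn (Myl4 11.90, Myl7 9.14) while its Myl2 value of 18.84 lies among those of the other mice.

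On the thin filament, 3 of 13 genes rose and 0 fell, and the median log2 fold change was 0.07. Acta1, skeletal alpha-actin, which the fetal heart also makes, read 14.71, 14.31, 14.59 and 14.62 in MI mice and 13.88, 12.51, 13.41 and 13.38 in sham mice. Every MI mouse was above every sham mouse, and sham replicate 2 was low. The mean was 14.56 ± 0.18 in MI mice and 13.29 ± 0.57 in sham mice (SD, n = 4 each), a 2.40-fold difference (log2 fold change 1.26 ± 0.26 SE, adjusted p = 0.0325 in limma). Without sham replicate 2 it was 1.00, and the rise was 1.32 and 1.21 within the array rows.

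Actc1, cardiac alpha-actin and the main actin of the adult heart, read 19.22, 18.82, 19.35 and 18.80 in MI mice and 18.75, 18.55, 19.03 and 18.64 in sham mice. The groups overlapped through sham replicate 3, and the difference of 0.30 ± 0.15 did not pass the test (adjusted p = 0.418).

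The stretches of 250 bases before the RefSeq starts of Acta1 and Actc1 (GRCm38.p6) are given because these genes encode nearly the same protein and only Acta1 passed the test. Capitals mark a CArG box, the sequence that serum response factor binds, 73 to 64 bases before the start in Acta1 and 47 to 38 bases before it in Actc1.
Acta1 (chr8:123894776-123895025, minus strand): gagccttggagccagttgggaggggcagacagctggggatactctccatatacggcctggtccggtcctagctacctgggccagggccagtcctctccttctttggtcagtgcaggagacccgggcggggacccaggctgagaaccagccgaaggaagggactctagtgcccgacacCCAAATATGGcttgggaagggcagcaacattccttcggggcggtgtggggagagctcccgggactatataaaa
Actc1 (chr2:114052876-114053125, minus strand): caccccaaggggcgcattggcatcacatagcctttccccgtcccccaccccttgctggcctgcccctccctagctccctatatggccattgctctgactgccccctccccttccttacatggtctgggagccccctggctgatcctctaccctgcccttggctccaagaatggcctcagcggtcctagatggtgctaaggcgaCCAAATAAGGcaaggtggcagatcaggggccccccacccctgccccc

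A CArG box lay in this window, on either strand, in 7 of the 36 genes that have an entry in the promoter table (19.4%, against 1.62% of 27025 mouse genes): Acta1, Actc1, Ldb3, Myl3, Myl7, Myom1 and Nebl. A MEF2 box lay in 4 (11.1%, against 0.592%): Mybpc3, Myoz2, Synpo2l and Ttn. The motif CATTCC, known as the MCAT element and bound by TEAD factors, lay in 13 genes (36.1%, against 14.4%), Acta1 among them and Actc1 not, and TATAAA in 7 (19.4%, against 14.3%). No 2 of these motifs overlapped in these windows. The motifs were picked with the expression values known, and a match describes letters and is neither a bound site nor a cause. Myom2, Tcap and Fbxo32 are not in the table.

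Genes with a CArG box comprised Acta1, which rose, and Myl3, which differed by −0.06. Those with a MEF2 box comprised Synpo2l, which rose, and Ttn, which differed by −0.14. Their boxes are shown in capitals with 25 bases on each side, so that the letters can be set beside these unlike values.
Myl3 (chr9:110763568-110763627, plus strand): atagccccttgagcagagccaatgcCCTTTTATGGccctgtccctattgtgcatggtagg
Synpo2l (chr14:20668429-20668488, minus strand): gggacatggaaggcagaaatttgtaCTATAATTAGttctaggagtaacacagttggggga
Ttn (chr2:76982679-76982738, minus strand): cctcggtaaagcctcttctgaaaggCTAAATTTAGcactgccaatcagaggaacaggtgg

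Tropomyosins parted by gene. Tpm3, which encodes slow-muscle and cytoskeletal tropomyosins, read 14.62, 14.49, 14.97 and 14.71 in MI mice and 13.95, 13.71, 14.19 and 13.86 in sham mice. Tpm4, another gene of cytoskeletal tropomyosins, read 14.05, 13.90, 14.17 and 14.39 in MI mice and 13.28, 13.32, 13.77 and 13.41 in sham mice. In each gene all MI mice lay above all sham mice. Tpm3 rose 1.71-fold (log2 fold change 0.77 ± 0.13, adjusted p = 0.0146) and Tpm4 1.60-fold (0.68 ± 0.14, adjusted p = 0.0318).

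Tpm1, the main tropomyosin of the heart, differed by −0.04 ± 0.16 on its brightest probe (95% interval −0.40 to 0.32), and Tpm2 by −0.09 ± 0.15. The 5 probes of Tpm1, which the annotation gives to several transcripts, gave −0.04, 0.03, 0.22, 0.33 and 0.31 from the brightest to the dimmest. On the dimmest probe every MI mouse lay above every sham mouse (adjusted p = 0.0876), and it passed the test after percentile scaling (log2 fold change 0.72, adjusted p = 0.0258). The 5 probes thus gave unlike values, and the differences between them were not tested.

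Of the troponins, 0 of 5 genes passed the test. Tnnt2, cardiac troponin T, read 18.67, 18.16, 18.68 and 18.28 in MI mice and 18.40, 18.25, 18.72 and 18.45 in sham mice, a difference of −0.01 (95% interval −0.35 to 0.33). Tnni3, cardiac troponin I, read 18.23, 17.69, 18.23 and 17.89 in MI mice and 18.03, 17.86, 18.29 and 18.11 in sham mice, a difference of −0.06 (−0.39 to 0.27). Both genes had overlapping groups, with MI replicate 2 the lowest mouse, and Tnnc1, the calcium-binding troponin C, differed by 0.02 (−0.28 to 0.32).

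The slow skeletal troponins, which the embryonic heart expresses, also overlapped between groups. Tnnt1 read 12.72, 12.39, 12.69 and 12.38 in MI mice and 12.41, 12.10, 12.49 and 12.46 in sham mice. Tnni1 read 8.26, 7.93, 8.24 and 8.11 in MI mice and 8.07, 8.14, 8.06 and 7.97 in sham mice. Tnnt1 differed by 0.18 ± 0.12 (adjusted p = 0.569) and Tnni1 by 0.07 ± 0.09 (adjusted p = 0.819). The probe of Tnni1 was dim, and the spike-in fit adds a constant to each signal, which by its construction lowers the fold change of a dim probe. Its log2 fold change was 0.28 in the deposited log2 values of the authors, where it did not pass the test (adjusted p = 0.607).

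At the pointed end of the thin filament, Lmod2, a leiomodin that lengthens the filament, read 11.72, 11.61, 11.81 and 12.32 in MI mice and 11.74, 12.12, 12.62 and 12.37 in sham mice. MI replicates 1 and 2 were below every sham mouse and replicates 3 and 4 were not, and the difference was −0.35 ± 0.21 (adjusted p = 0.529). Tmod1, the tropomodulin that caps the same end, differed by 0.42 ± 0.17 (adjusted p = 0.275).

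**Figure D3:**
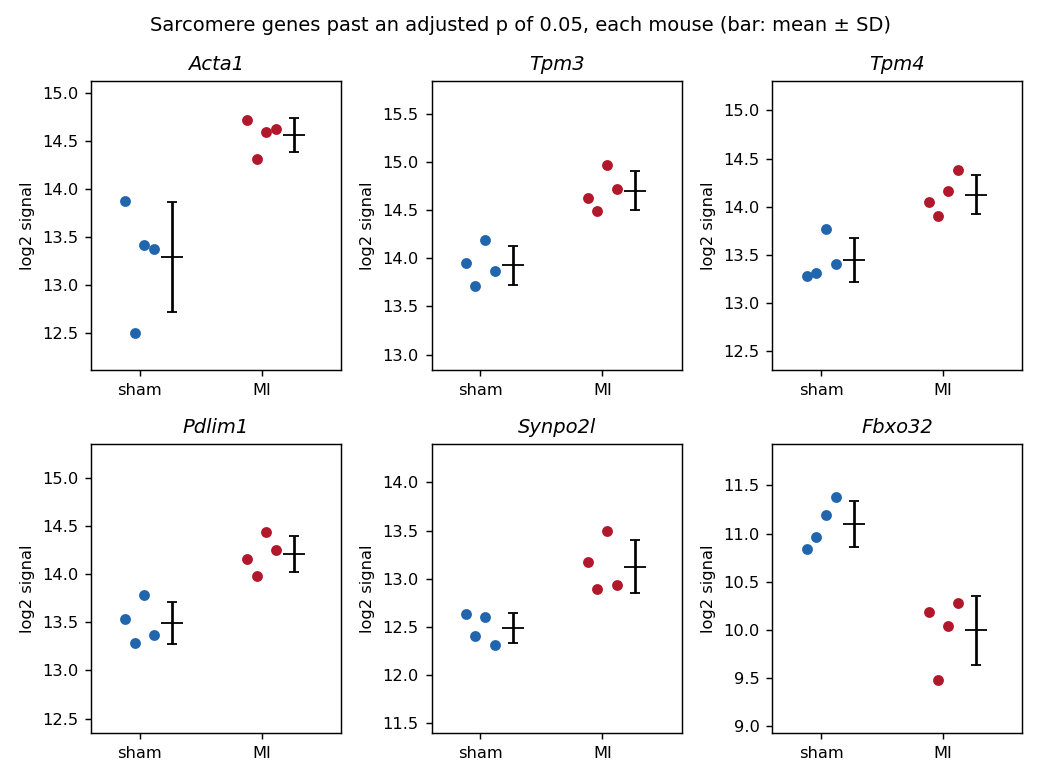
Log2 signal (y axis) of the 6 genes with an adjusted p under 0.05 in sham-operated (blue) and MI (red) mice, 1 point per mouse, with mean and SD beside the points and the same span on every axis. The groups are apart in all 6 panels, with Fbxo32 the gene that is lower in MI mice (10.00 ± 0.36 against 11.09 ± 0.24).

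Fetal, atrial or skeletal isoforms were also compared with the adult ventricular isoform within each array, so that a shift of a whole array cancels. Since the probes differ, the size of such a difference in 1 mouse has no meaning, and its change between groups does. Acta1 minus Actc1 was −4.50, −4.51, −4.76 and −4.18 in MI mice and −4.88, −6.04, −5.61 and −5.27 in sham mice. The groups did not overlap, and the difference was higher in MI mice by 0.96 ± 0.28 (exact two-sided permutation p = 0.0286, the smallest that 4 against 4 mice can give). It was 0.95 and 0.97 within the array rows. Adjusted over the 6 pairs compared, p was 0.171 by the exact test. This is the lowest that a pair can reach while no other pair has the smallest p, so that none passing says little. It was 0.0857 after percentile scaling and in the deposited log2 values.

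Myh7 minus Myh6 was −5.33, −4.92, −5.56 and −3.91 in MI mice and −4.94, −5.49, −5.77 and −5.80 in sham mice. It was higher in MI mice by 0.57 ± 0.42 (exact permutation p = 0.229, adjusted 0.386), by 0.09 and 1.06 within the rows, and by 0.23 without MI replicate 4. The troponin T pair, Tnnt1 minus Tnnt2, was higher by 0.19 ± 0.08, a small difference with little spread (exact permutation p = 0.0571, adjusted 0.171). Its groups overlapped through a near tie alone, sham replicate 4 at −5.98908 and MI replicate 3 at −5.98936. After percentile scaling and in the deposited log2 values its adjusted exact p was 0.0857, the same as for Acta1 minus Actc1. The troponin I pair, Tnni1 minus Tnni3, was higher by 0.13 ± 0.13 (exact permutation p = 0.4). This value depended on the processing of the dim Tnni1 probe. It was 0.34 after percentile scaling and 0.35 in the deposited log2 values (adjusted exact p = 0.371 and 0.309). The light chain pairs moved most with sham replicates 4 and 2. Myl7 minus Myl2 was higher by 1.29 ± 1.20 (exact permutation p = 0.371), by 0.17 without sham replicate 4 and by 2.02 without sham replicate 2. Myl4 minus Myl3 was higher by 1.42 ± 1.08 (exact permutation p = 0.257), by 0.44 without sham replicate 4 and by 2.11 without sham replicate 2. Without sham replicate 2 the groups were apart in both light chain pairs (exact permutation p = 0.0571 adjusted over the 6 pairs).

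**Figure D4:**
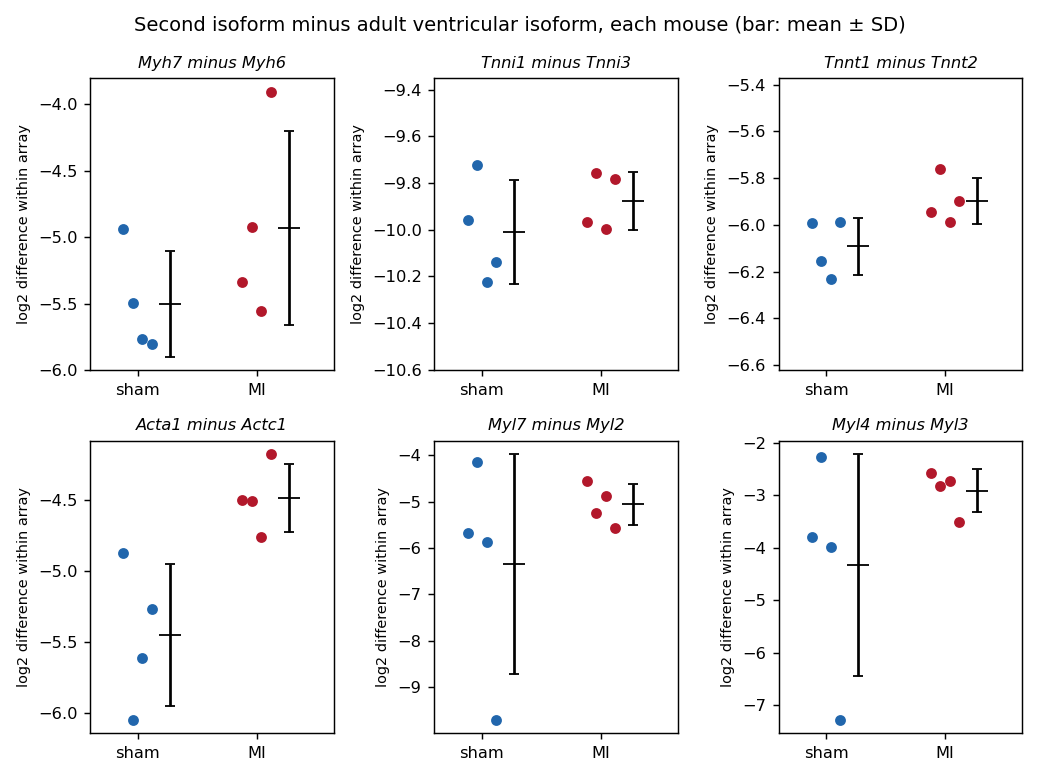
Difference of 2 log2 signals within each array (y axis) for 6 pairs, each a fetal, atrial or skeletal isoform minus the adult ventricular isoform, in sham-operated (blue) and MI (red) mice with mean and SD. In these values only Acta1 minus Actc1 has its groups apart, and those of Tnnt1 minus Tnnt2 overlap by a near tie. MI replicate 4 stands out in Myh7 minus Myh6, and sham replicate 4 lies far below in both light chain pairs.

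Of titin and the M-band, 0 of 3 genes passed the test in limma (1, Myom2, at an unadjusted p under 0.05). Ttn, the spring of the sarcomere, differed by −0.14 ± 0.18 on its brightest probe, and its other probes gave −0.37, −0.40 and 0.06. Myom2, the M-protein of the M-band, read 16.75, 16.07, 16.63 and 16.32 in MI mice and 16.99, 16.56, 17.23 and 16.83 in sham mice. MI replicates 2 and 4 were below every sham mouse, and replicates 1 and 3 lay above sham replicate 2 alone. The difference was −0.46 ± 0.18 (adjusted p = 0.266), and after percentile scaling Myom2 fell by 0.59 (adjusted p = 0.00797). Myom1, myomesin, differed by 0.27 ± 0.23.

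The Z-disc and desmin held the highest median of the 5 roles (0.39), with 2 of 12 genes risen and 0 fallen. Pdlim1, a PDZ and LIM protein that binds alpha-actinin, read 14.16, 13.98, 14.43 and 14.25 in MI mice and 13.54, 13.28, 13.78 and 13.37 in sham mice. Synpo2l, an actin-binding protein of the Z-disc, read 13.18, 12.89, 13.49 and 12.94 in MI mice and 12.63, 12.41, 12.60 and 12.31 in sham mice. No MI mouse reached down to a sham mouse in either gene. Pdlim1 rose 1.64-fold (0.72 ± 0.13, adjusted p = 0.0216) and Synpo2l 1.56-fold (0.64 ± 0.14, adjusted p = 0.0477). Synpo2l was no longer called with the array row as a block (adjusted p = 0.0696) or in the deposited log2 values (adjusted p = 0.0657).

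Desmin, the intermediate filament of muscle, came close. Des read 14.94, 14.38, 15.04 and 14.77 in MI mice and 14.40, 13.62, 14.01 and 13.92 in sham mice. Only MI replicate 2 lay below a sham mouse, replicate 1, and by little. The log2 fold change was 0.79 ± 0.19 (adjusted p = 0.0609), and it passed the test after percentile scaling (0.67, adjusted p = 0.0068) and in the deposited log2 values (0.79, adjusted p = 0.036).

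The relatives of Pdlim1 had smaller values. Pdlim3, the actinin-associated LIM protein, differed by 0.53 ± 0.15 (adjusted p = 0.102) and Pdlim5 by 0.42 ± 0.16 (adjusted p = 0.24), each with every MI mouse above every sham mouse. The dimmest of the 3 probes of Pdlim5, annotated to another transcript, passed the test (0.76 ± 0.16, adjusted p = 0.0396), while the brighter ones gave 0.42 and 0.48. Actn2, the alpha-actinin that crosslinks actin at the Z-disc, differed by 0.51 ± 0.20 (adjusted p = 0.258), Mypn, myopalladin, by 0.36 ± 0.19 and Ldb3, cypher, by 0.30 ± 0.21 on 1 probe and −0.17 on the other.

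The rest of the Z-disc genes did not follow them. Tcap, the titin cap telethonin, differed by −0.34 ± 0.18, Myoz2, a calsarcin that binds calcineurin, by −0.06 ± 0.13, and Cmya5, myospryn, by −0.29 ± 0.17 on its brightest probe and 0.48 on the other. Cmya5 passed the test after percentile scaling (fell by 0.43, adjusted p = 0.0168). Nebl, nebulette, was dim, well above background on 7 of 8 arrays, and differed by 0.02 ± 0.07, or 0.33 in the deposited log2 values (adjusted p = 0.431).

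Among factors of assembly and turnover, 0 of 4 genes rose and 1 fell. On their brightest probes all 4 were lower in MI mice at any size, as were 6235 of all 15156 genes. The other probe of Smyd1 gave 0.13 and that of Trim63 −0.02. Fbxo32, the muscle ubiquitin ligase atrogin-1, read 10.19, 9.48, 10.04 and 10.28 in MI mice and 10.84, 10.97, 11.19 and 11.38 in sham mice. Every MI mouse was below every sham mouse. Fbxo32 was 2.14-fold lower in MI mice (log2 fold change −1.10 ± 0.19, adjusted p = 0.0158), by −1.07 and −1.12 within the array rows, and −1.42 after percentile scaling.

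Trim63, the ubiquitin ligase MuRF1, which is often measured beside atrogin-1, had a smaller difference. It read 14.57, 13.58, 14.48 and 14.26 in MI mice and 14.72, 14.18, 14.40 and 14.40 in sham mice. The groups overlapped, with MI replicate 2 alone far below, and the difference was −0.20 ± 0.22 (adjusted p = 0.8, 95% interval −0.69 to 0.29). The difference between the changes of Fbxo32 and Trim63 was not tested.

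The factors of myosin assembly did not pass the test. Smyd1, a methyltransferase of muscle that takes part in myosin assembly, read 13.35, 12.88, 13.33 and 13.20 in MI mice and 13.19, 13.24, 13.61 and 13.45 in sham mice. Unc45b, the myosin chaperone, read 11.38, 10.65, 11.39 and 11.16 in MI mice and 11.60, 11.23, 11.51 and 11.00 in sham mice. Groups overlapped in each, with differences of −0.18 ± 0.13 (95% interval −0.48 to 0.12) and −0.19 ± 0.19 (−0.63 to 0.25). With normexp background correction and quantile normalization, Smyd1 fell by 0.27 (adjusted p = 0.036 in limma).

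Of 46 other genes listed for the sarcomere and its attachments, 42 had a retained probe, with a median log2 fold change of 0.29. Of these, 15 rose and 0 fell (4.86% and 0.528% of all genes). The 15 include Actn1 (1.31 ± 0.21), Actn4 (0.68 ± 0.13) and Myl6 (0.51 ± 0.08), and the part of cells other than cardiomyocytes was not tested. After percentile scaling 15 rose and 3 fell (Lmod3, Tmod2 and Tmod4), against 10.1% and 12.5% of all genes. In the deposited log2 values 13 rose and 1 fell (Lmod3), against 6.52% and 1.32% of all genes. In Lmod3, a leiomodin, every MI mouse lay below every sham mouse, with a log2 fold change of −0.89 ± 0.26 (adjusted p = 0.127 in limma), or −1.05 after percentile scaling (adjusted p = 0.00911). The 4 with the largest rise were Ankrd2, a stretch-responsive ankyrin protein of titin's I-band (3.28 ± 0.26), Flnc, filamin C of the Z-disc (2.15 ± 0.11), Fhl1, a LIM protein bound to titin (1.89 ± 0.16), and Xirp1, the actin-binding protein Xin (1.83 ± 0.21).

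Tpm3, Tpm4 and Pdlim1 are also made by cells other than cardiomyocytes, and markers of other cells moved between the groups. Of 8 neutrophil genes, 6 rose, and their summed signal was 204669 to 317084 in the MI group against 62784 to 77693 in the sham group. Of 7 monocyte and macrophage genes with a retained probe, 2 rose (summed signal 16817 to 23845 against 12452 to 18881). Of 7 smooth muscle genes 1 rose, Acta2, smooth muscle actin (1.45 ± 0.27, adjusted p = 0.024), while the defining markers Myh11 and Tagln differed by −0.13 and −0.06. The sum over the 6 smooth muscle genes measured on all arrays was 34291 to 55188 in the MI group against 24641 to 33936 in the sham group. Acta2 made most of that difference. Its mean signal before scaling was 26680 against 8677, beside 9649 against 9559 for Smtn and 9161 against 8569 for Tagln. Of 8 fibroblast, 8 endothelial and 4 proliferation genes, 0 passed the test in limma (1, 2 and 0 at an unadjusted p under 0.05, with medians of −0.39, 0.20 and −0.02), and the summed fibroblast signal was 47347 to 115612 against 91224 to 142745. The part of these cells in the rise of Tpm3, Tpm4 and Pdlim1 was not tested.

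Skeletal muscle also makes Acta1. Of 12 marker genes, 7 had a retained probe and 0 of them were called (0 at an unadjusted p under 0.05), with a summed signal of 15123 to 25985 in MI mice and 14725 to 20953 in sham mice. Myh1, Myh2, Myh4, Mylpf and Actn3, the fast-muscle genes that define it, were not well above background on enough arrays to be retained. Mybpc2 of this list and Myl9 of the smooth muscle list are also among the other sarcomere genes above.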

How the data were processed

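Ventricular RNA of 4 MI mice and 4 sham-operated mice was measured on 1-colour Agilent arrays, 1 per mouse, and groups were taken from the sample labels. Per the file headers, the deposited intensities were made by Feature Extraction 11.0.1.1 as processed signals (array design on build mm9), with local background subtracted and spatial trends removed within each array, and without normalization between arrays. The median intensities of spots and their background were used as deposited. The deposited log2 values of the authors were made with limma and vsn from spots well above background, normalized on spike-in probes; versions are not given in the sources used here.

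For the values computed here, the vsn likelihood, programmed anew, was fitted to 7 spike-in probes with 234 spots, with a scale and an additive constant per array (constants 166 to 257), and values were put on a log2 scale. Outlier spots were left out, spots of a probe were averaged, and 34038 probes well above background on at least 4 arrays were retained. Probes were named through the RefSeq transcript in the annotation, and each gene was read on its brightest retained probe (9 of the 39 genes had several). The groups were compared, MI minus sham, by limma 3.58.1 (R 4.3.3) with no covariate, in place of the significance analysis of microarrays named in the methods, with Benjamini-Hochberg adjustment over all retained probes. A gene was called at an adjusted p under 0.05 at any fold. Single values and isoform differences had an exact two-sided permutation test over mice. Spreads are SD and fold change errors SE. Scripts ran in Python 3.11.15 (pandas 2.3.3, numpy 2.4.6, scipy 1.17.1, matplotlib 3.10.9) and were tested on simulated data. Probe sequences are not in the files used, so cross-hybridization between close relatives was not checked. Promoters came from a RefSeq table (GRCm38.p6).

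The 39 genes, the other gene lists and the tests were chosen with earlier results of these data known. Each mouse's value is given for called genes, the 12 genes of the isoform pairs, the 4 assembly and turnover genes and the 3 largest folds in each direction, and the at most 4 largest called rises are named from the other sarcomere genes. Further genes were picked with their values in view. Alternatives changed the normalization, background correction, filters, probe choice, test, blocks or mice.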

Additional observations from a re-analysis of the deposited data

Results flagged for a closer look

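Of 90 sets of 4 mice examined (39 genes and 6 pairs in each group), 3 held a mouse that stood apart from the other 3 by Dixon's criterion, which chance meets in about 1 of 20 sets. Myh7 read 14.70 in MI replicate 4, against 13.48 to 13.64 in the other MI mice. Nebl read 7.75 in MI replicate 2, against 7.92 to 7.94. Cmya5 read 13.70 in MI replicate 2, against 14.23 to 14.29. No cause was tested.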

How the results depend on the processing

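No called gene changed direction under the 20 alternatives. Tpm3 and Fbxo32 were still called in 17 of them, Acta1 in 13, Pdlim1 in 12, Tpm4 in 11 and Synpo2l in 7. The 5 genes higher became 1 when spike-in signals shifted the arrays without an additive constant, 8 with quantile normalization, 10 with normexp, 2 without a detection filter, 0 with an unmoderated t-test per probe, which lacks the permutations of the software named in the methods (8 of the 39 genes at an unadjusted p under 0.05), and 0 to 7 with 1 mouse left out. The 1 gene lower became 3 after percentile scaling, 2 with quantile normalization, 4 with normexp, 0 with that t-test and 0 to 1 with 1 mouse left out. Of the other sarcomere genes, 15 were called, 9 with that t-test and 11 to 16 with 1 mouse left out.

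With the replicate block, 11 genes were higher and 2 lower, and 4935 probes of the array were called in place of 1271, but deviations of MI and sham mice of the same replicate number correlated by 0.277, 0.364, 0.0868 and 0.00105, and 2 of the 4 numbers matched best with their own, so the numbers were not taken as pairs. Over the array, 5973 probes were called after percentile scaling, 6153 with quantile normalization, 6995 with normexp and 2017 in the authors' values. There were 518 with that t-test, and 588 to 2270 with 1 mouse left out. The shift by spike-in signals alone called 1862 of 34038 probes, more than the main fit, though fewer of the 39 genes. Without a detection filter 911 of 55680 probes were called.

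Only uncalled values turned sign. With quantile normalization the log2 fold change was 0.020 for Myh6, −0.15 for Nebl, −0.035 for Tnnc1, 0.028 for Tnni3 and 0.0071 for Tpm1. After percentile scaling it was −0.091 for Nebl and −0.11 for Tnnc1. With normexp it was −0.028 for Nebl, −0.020 for Tnnc1 and 0.025 for Tnnt2. As a mean over probes it was 0.094 for Cmya5 and 0.17 for Tpm1. With 1 mouse left out it ranged from −0.13 to 0.071 for Myh6, −0.17 to 0.024 for Myl2, −0.16 to 0.047 for Myl3, −0.15 to 0.0093 for Myoz2, −0.054 to 0.11 for Tnnc1, −0.13 to 0.047 for Tnni3, −0.089 to 0.087 for Tnnt2, −0.13 to 0.077 for Tpm1, −0.17 to 0.047 for Tpm2, −0.32 to 0.014 for Trim63 and −0.29 to 0.00070 for Ttn. The causes were not tested. Precision is limited by 4 arrays per group, and the dim probes of Tnni1 and Nebl lie close to background.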

Other observations

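Perinatal myosin heavy chain, Myh8, chosen after its values were seen, read 18.22, 17.73, 18.28 and 17.80 in MI mice and 17.97, 17.81, 18.40 and 18.03 in sham mice. Its log2 fold change was −0.05, beside −0.04 for Myh6. Sham replicate 3 was the highest mouse for both genes, as it was for Myl2, Myl3, Tnnt2 and Tnni3. The mean signal of the Myh8 probe before scaling was 268855, beside 270930 for Tnni3. Whether this probe also reads Myh6 was not checked, so its signal is not a level of Myh8.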
